A study of Mus musculus with 8 samples.

Results

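The protein genes of the cytosolic ribosome were followed through 4 total RNA libraries and 4 nascent RNA libraries of mouse liver. Members are the protein-coding rows of the expression table whose symbol begins with Rpl, Rps or Rplp and a number, without the S6 kinase genes (Rps6k) and Rps19bp1. The pattern matched 105 rows, of which 11 were such kinase or Rps19bp1 rows and 6 were pseudogenes. This left 88 members of 25124 rows, of which 20870 are protein-coding. Large-subunit symbols (Rpl) account for 56 members, among them 3 of the P-stalk, and small-subunit symbols (Rps) account for 32. The 88 rows stand for 86 loci, because Rpl34-ps1 lies on Rpl34 and Rps27rt lies on Rps27 in the table, and these pairs hold the same reads.

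Cytosolic ribosomal proteins assemble with ribosomal RNA into the small subunit, which decodes the mRNA, and the large subunit, which joins the amino acids. The P-stalk proteins Rplp0, Rplp1 and Rplp2 stand on the large subunit and recruit the factors that drive elongation. Their mRNAs are abundant and long-lived in liver as in most tissues. Many start with a C followed by a run of pyrimidines, the 5′ terminal oligopyrimidine (TOP) tract, through which mTORC1 and LARP1 adjust their translation. Several of these genes also carry small nucleolar RNAs (snoRNAs) in their introns, which are cut out of the transcript and then guide the chemical modification of ribosomal RNA. C/D box snoRNAs guide ribose methylation, and H/ACA box snoRNAs guide pseudouridylation.

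RNA-seq came from C57BL/6 wild-type mice that were fasted overnight and received vehicle or 30 mg/kg GW4064, a synthetic agonist of the bile acid receptor FXR, for 1 h. There were 2 libraries per treatment, each from liver RNA pooled from 2 mice, with ribosomal RNA removed. The labels name a stranded TruSeq mRNA kit and the methods a Kapa mRNA kit with polyadenylated libraries, so total RNA here means the RNA-seq libraries, and how far they hold RNA without a poly(A) tail, snoRNAs among it, is not settled by these sources. The vehicle is DMSO in the labels and corn oil in the study's methods. Global run-on sequencing (GRO-seq), which reads RNA made by engaged polymerases in isolated nuclei, had 1 library for each of 4 groups of male, fasted mice: vehicle or GW4064 for 1 h in mice labelled WT, and the same in mice labelled FXR KO. The methods call these mice Fxr-Flox and Fxr-LKO, the names used here. Fxr-LKO mice lose Fxr through Cre driven by the albumin promoter, so other liver cells keep it. A figure legend of the study gives n = 2 per group for GRO-seq. Whether each GRO-seq library holds 1 mouse, a pool or merged replicates is not clear from these sources. All livers are whole tissue, in which fewer cells of a type and less RNA per cell cannot be told apart. Ages are not given in the sources used here.

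The RNA-seq libraries held 13924469 to 14047223 reads, rebuilt from the deposited values. The GRO-seq libraries held 14173723 (Fxr-Flox, vehicle), 10593326 (Fxr-Flox, GW4064), 5141667 (Fxr-LKO, vehicle) and 5069394 reads (Fxr-LKO, GW4064). Levels are RPKM, reads per kilobase of the whole row with its introns, scaled to library depth, so they are not levels of mature mRNA alone. The targeted gene Nr1h4, which encodes FXR, had 15.1 and 4.23 RPKM in Fxr-Flox and 16.7 and 20.6 RPKM in Fxr-LKO GRO-seq (vehicle, then GW4064), and reads over the whole gene do not check the deletion of a part of it. Abcb11, the bile salt export pump and an FXR target, had 4.61 and 56.0 RPKM in Fxr-Flox and 1.2 and 1.58 RPKM in Fxr-LKO. Other FXR targets had a higher value with GW4064 in the Fxr-LKO libraries too: Nr0b2, which encodes the repressor SHP, had 3.65 and 36.6 RPKM in Fxr-Flox and 0.118 and 1.19 RPKM in Fxr-LKO, and Osgin1 had 9.06 and 82.0 RPKM in Fxr-Flox and 6.47 and 15.2 RPKM in Fxr-LKO. In RNA-seq, 6 of 6 tested FXR-induced genes were higher after GW4064 (limma, Benjamini-Hochberg). The 10 hepatocyte markers summed to 513 to 579 RPKM over the RNA-seq libraries, and none was at 0.

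Annotated snoRNAs lay on the same strand inside 29 members, here called host members, and inside none of the other 59. The sequences below show what these introns encode, because the host members differ from the others in nascent RNA. They are given 5′ to 3′ from the GENCODE M21 annotation of GRCm38. Capitals mark the C box and the D box of C/D snoRNAs or the ACA box of H/ACA snoRNAs. Snora64 lies in Rps2 (chr17:24720772-24720905, plus strand) and Snora65 in Rpl12 (chr2:32963291-32963420, plus strand). Snord33 lies in Rpl13a (chr7:45126864-45126947, minus strand).
Snora64: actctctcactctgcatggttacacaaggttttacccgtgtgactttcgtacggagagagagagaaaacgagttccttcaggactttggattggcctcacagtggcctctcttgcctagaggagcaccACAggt
Snora65: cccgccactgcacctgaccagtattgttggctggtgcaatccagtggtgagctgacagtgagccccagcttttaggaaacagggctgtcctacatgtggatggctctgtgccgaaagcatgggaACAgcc
Snord33: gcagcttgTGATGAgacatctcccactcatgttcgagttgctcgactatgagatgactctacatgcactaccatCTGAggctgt

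The TOP tract was searched in the first 50 transcribed bases of RefSeq genes (GRCm38.p6), as a C followed by at least 7 pyrimidines on the transcribed strand. Of the 67 members with a RefSeq promoter sequence, 38 (56.7%) held such a tract, against 2174 of 16387 protein-coding rows (13.3%). A C with at least 4 pyrimidines after it stood exactly at the annotated start in 13 members (19.4%), against 2.20% of the protein-coding rows. The tract was found in 10 of 19 host members (52.6%) and in 28 of 48 others (58.3%). The wider count includes tracts that begin well inside the transcript, such as at base 42 in Rpl10. The windows that cover the start or lie close to it are shown for 5 members, with the tract in capitals. In Rpl15, Rps6, Rps10 and Rps18 the capitals begin upstream of the annotated start, and in Rpl22l1 they begin at base 4. Rpl15 starts at chr14:18270986 on the minus strand, Rps6 at chr4:86857367 on the minus strand and Rps10 at chr17:27635244 on the minus strand. Rps18 starts at chr17:33955665 on the minus strand and Rpl22l1 at chr3:28805508 on the plus strand.
Rpl15: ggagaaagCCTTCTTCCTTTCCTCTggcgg
Rps6: aagtcgggCCTCTTTTTCgtgacg
Rps10: cgcgcacgCCCCTTCCTTTCCagcctc
Rps18: cacttccgCTCTCTCTTCCacagga
Rpl22l1: agcccgttCTCTTCCCacggct

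In total RNA the members were expressed over a wide range, and 84 of 88 averaged at least 0.5 RPKM across the RNA-seq libraries. Among these 84 the mean ran from 0.648 to 20.4 RPKM. Rplp1, a P-stalk protein, was the highest at 18.7 and 19.7 RPKM with vehicle and 19.5 and 23.6 RPKM with GW4064. Rpl8, a large-subunit protein near the peptidyl transferase centre, had 17.5 and 19.6 RPKM with vehicle and 18.6 and 21.8 RPKM with GW4064. Rpl41, the smallest ribosomal protein, had 15.5 and 16.2 RPKM with vehicle and 17.0 and 18.8 RPKM with GW4064. These levels exceeded the lowest members by more than the spread between libraries, and these 3 members kept this order in each of the 4 libraries. Rpl13a, a large-subunit protein and a host of 4 C/D snoRNAs, had 15.4 and 15.4 RPKM with vehicle and 15.4 and 17.1 RPKM with GW4064.

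At the low end, Rps29, a small-subunit protein, had 0.588 and 0.486 RPKM with vehicle and 0.981 and 0.537 RPKM with GW4064. Rpl28, a large-subunit protein, had 1.09 and 0.675 RPKM with vehicle and 0.999 and 1.22 RPKM with GW4064. Rps23, a small-subunit protein of the decoding centre, had 0.669 and 1.19 RPKM with vehicle and 1.11 and 1.47 RPKM with GW4064. The treatment groups overlapped in all 3 of these genes, and the 2 libraries of a group could differ as much as the groups did. Rpl38, a large-subunit protein, had 1.19 and 1.04 RPKM with vehicle and 0.976 and 1.33 RPKM with GW4064.

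Only 4 members stayed under 0.5 RPKM in both assays and were not tested. Rpl10l, a testis paralogue of Rpl10, was at 0 in the RNA-seq libraries and in 3 GRO-seq libraries, with 0.345 RPKM in the Fxr-Flox vehicle library. Rpl39l, a testis paralogue of Rpl39, reached at most 0.03 RPKM in either assay. Rpl3l, the striated-muscle paralogue of Rpl3, had 0.035 and 0.06 RPKM with vehicle and 0.043 and 0.017 RPKM with GW4064. Its GRO-seq levels were 0.161 and 0.147 RPKM in Fxr-Flox and 0.257 and 0.19 RPKM in Fxr-LKO, from 19, 13, 11 and 8 reads. In RNA-seq these 3 genes were at or near the detection limit. Rpl31-ps12, which the table lists as protein-coding inside Spag6l, was at 0 in all 8 libraries.

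Paralogues with a broader expression passed the filter. Rpl7l1, which acts in the assembly of the large subunit, had 5.98 and 6.42 RPKM with vehicle and 6.44 and 6.49 RPKM with GW4064. Rpl36al, a retrotransposed paralogue of Rpl36a, had 7.38 and 7.0 RPKM with vehicle and 7.87 and 7.30 RPKM with GW4064. Rps27l, a p53-responsive paralogue of Rps27, had 4.76 and 5.56 RPKM with vehicle and 5.34 and 5.70 RPKM with GW4064. None of the 3 passed the test, with fitted changes of 0.06, 0.08 and 0.10 on the log2 scale (limma adjusted p 0.630, 0.590 and 0.626).

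RPKM of these genes can also depend on how many reads can be placed, because ribosomal protein genes have many processed pseudogenes. Uniqueness was measured on the mRNA, while the rows span introns too. Of 84 members with a matched mRNA, 30 had fewer than 50% of their 100-base stretches unique among annotated transcripts. The median level was 3.22 RPKM in the 30 tested members under 50%, 3.64 RPKM in 37 members between 50% and 90%, and 7.88 RPKM in 14 members at 90% or more. Over these 81 members the Spearman correlation of uniqueness with level was 0.38, and that with the change after GW4064 was −0.10, both given as descriptions over genes of the same libraries. The part of mapping in the levels was not tested.

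The first comparison asks whether GW4064 shifted the family in total RNA after 1 h. Of the 84 tested members, 1 was higher and 0 were lower (limma, adjusted p under 0.05), beside 2.13% of 11408 rows called higher and 1.15% called lower. At an unadjusted p under 0.05, 11 members were higher and 0 lower, beside 10.6% of rows in each direction. Limma-voom on rebuilt reads called 0 members, beside 4.58% of rows higher and 4.22% lower. At its unadjusted p under 0.05, 8 members were higher and 0 lower, beside 11% and 13% of rows. The single call was Rps16, a small-subunit protein. The share of members called was within the background, so the calls give no result about the family.

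The members nevertheless leaned to one side. The fitted change was above 0 in 77 of 84 members, and the median was 0.16 on the log2 scale, beside 5613 of 11408 rows above 0 and a median of −0.003 over all rows tested. Both GW4064 values lay above both vehicle values in 38 members and below them in 0, where 26.0% and 28.1% of all rows did so. The medians were 0.15 in the large subunit, 0.16 in the small subunit and 0.16 in the P-stalk, so no subunit set itself apart. Host members had a median of 0.19 and the others 0.15.

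**Figure D1:**
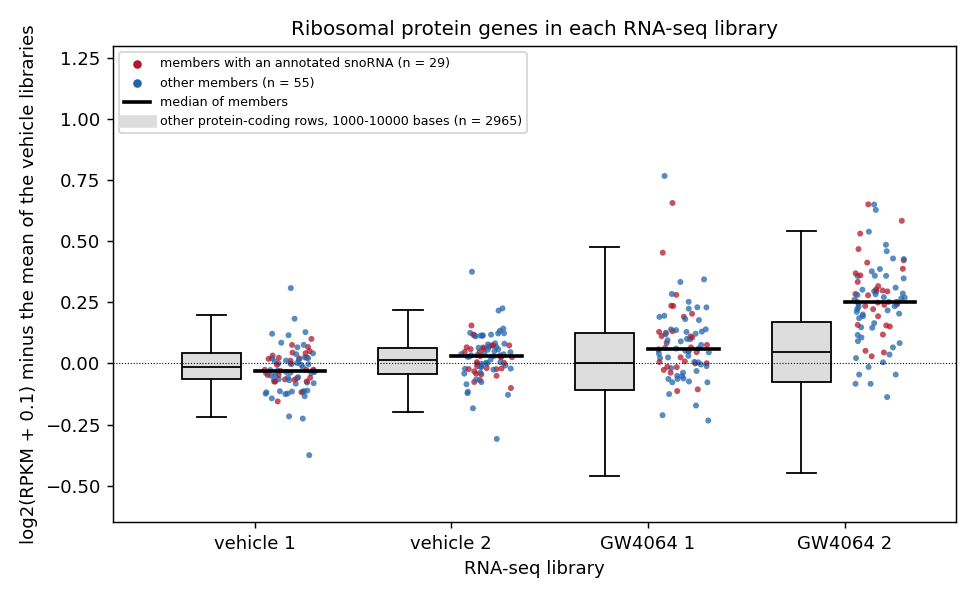
RNA-seq level of the tested members in each library, as log2(RPKM + 0.1) minus the mean of the vehicle libraries. Points are members (red with an annotated snoRNA, blue without), thick lines their median, and grey boxes the quartiles of the 2965 other protein-coding rows of 1000 to 10000 bases. The median of the members is 0.06 in the first GW4064 library and 0.25 in the second.

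The shift was larger in 1 of the GW4064 libraries. Against the vehicle mean, the median difference of the members was 0.06 in GW4064 library 1, with 61 of 84 above 0. It was 0.25 in GW4064 library 2, with 78 of 84 above 0. GW4064 library 2 exceeded GW4064 library 1 in 75 members and was the highest of the 4 libraries in 71. Without GW4064 library 2 the median change of the members was 0.06, and without GW4064 library 1 it was 0.25.

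Summed over the members, the level was 393.0 and 407.9 RPKM with vehicle and 415.0 and 472.8 RPKM with GW4064. Both GW4064 sums were above both vehicle sums, but the GW4064 sums lay further from each other than the lower one did from vehicle. The means were 400 ± 10.5 and 444 ± 40.8 RPKM (SD, n = 2), a ratio of 1.11 (two-sided exact permutation test, p = 0.333, the smallest that 2 against 2 can give). The members held 0.124% and 0.128% of reads with vehicle and 0.131% and 0.149% with GW4064.

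Some other measures also stood higher in GW4064 library 2 than in library 1, and others did not. The 2965 other protein-coding rows of 1000 to 10000 bases without a snoRNA had medians of 0.00 and 0.05 in the first and the second GW4064 library, and 56.7% of them had a fitted change above 0. By row length, the medians of other protein-coding rows in library 2 ran from 0.196 under 1000 bases to −0.095 from 100000 bases up. In library 1 they ran from 0.015 to −0.079. At 2000 to 5000 bases, 56 members had a median of 0.26 in library 2, and 1138 other rows had 0.05. The part of row length in the shift was not tested. Among cell type markers, the stellate cell list (10 of 10 tested, 7 above 0) summed to 12.9 to 13.5 RPKM with vehicle and 12.9 to 15 RPKM with GW4064, the higher value in library 2. The list of lymphocytes and other blood cells (7 of 17 tested, 6 above 0) summed to 95.9 to 96.3 RPKM with vehicle and 101 to 111 RPKM with GW4064, again highest in library 2. Haemoglobin genes carried much of that sum, so it says little about lymphocytes. Hba-a1 had 29.5 and 30.1 RPKM with vehicle and 31.5 and 34.2 RPKM with GW4064. For Hbb-bs the levels were 22.2 and 22.5 RPKM with vehicle and 24.5 and 26.3 RPKM with GW4064. Kupffer cell markers (8 of 10 tested) summed to 39.6 to 43.2 RPKM with vehicle, and to 43.8 and 42.6 RPKM in GW4064 libraries 1 and 2. Sinusoidal endothelial markers (10 of 10 tested) summed to 36.7 to 37.2 RPKM with vehicle, and to 39.9 and 39.3 RPKM in these GW4064 libraries. In both lists library 1 was thus the higher GW4064 library. Hepatocyte markers summed to 538 to 546 RPKM with vehicle and 513 to 579 RPKM with GW4064. Cholangiocyte markers (2 of 8 tested) summed to 5.36 to 6.46 RPKM with vehicle and 4.35 to 8.19 RPKM with GW4064. In the hepatocyte and cholangiocyte lists library 2 was the higher GW4064 library. No marker of these lists stood at 0 throughout RNA-seq or was called by limma in either direction, and their part in the shift of the members was not tested. At an unadjusted p under 0.05, 5 markers were higher and 1 lower, beside the 10.6% of rows in each direction, and limma-voom called 1 stellate marker higher and 1 hepatocyte marker lower, beside 4.58% and 4.22% of rows.

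**Figure D2:**
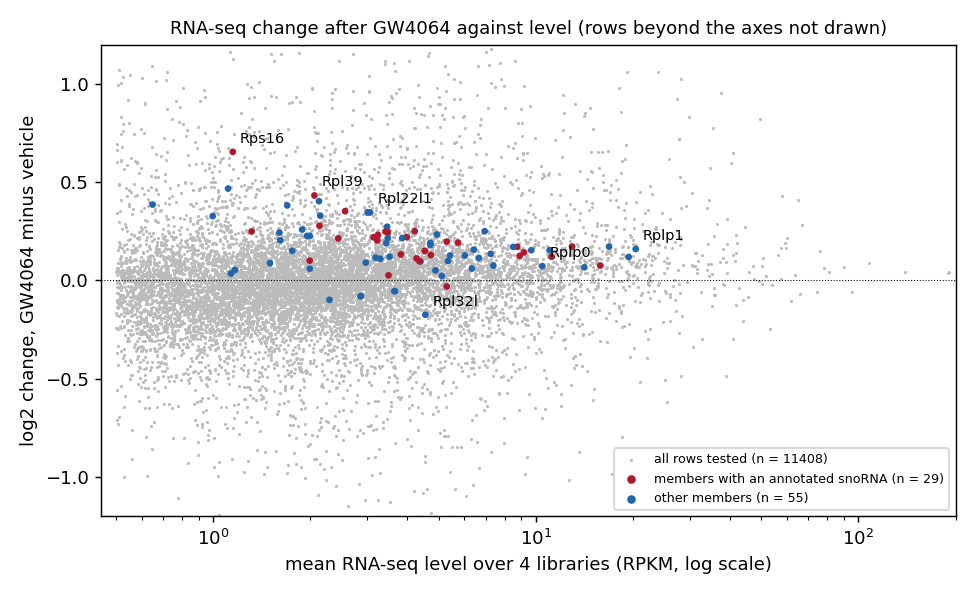
RNA-seq log2 change after GW4064 (vertical axis) against the mean level over the 4 RNA-seq libraries (horizontal log axis, RPKM), with each point a row: grey for all 11408 rows tested, red for host members, blue for other members. Of the 84 members, 77 lie above 0, and Rps16 at 0.65 is the highest and the only one past the threshold.

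Rps16 had 0.822 and 0.921 RPKM with vehicle and 1.43 and 1.42 RPKM with GW4064, from 23, 26, 40 and 40 reads. The groups did not overlap, and the distance between them was several times the spread within them. The fitted change was 0.65 (SE 0.08, 95% interval 0.44 to 0.87, limma, Benjamini-Hochberg adjusted p = 0.043). The call was lost when any 1 of the 4 libraries was left out (adjusted p 0.165 to 0.197) and with limma-voom (adjusted p = 0.110), and over all alternatives the adjusted p ran from 0.013 to 0.197. Each library is a pool of 2 mice, so the p-values rest on the spread between pools.

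The other large changes did not pass the threshold. Rps23 had the next largest fitted change, 0.47 (SE 0.31, limma adjusted p = 0.456), from the values given above. Rpl39, a small protein of the exit tunnel, had 1.70 and 1.76 RPKM with vehicle and 2.12 and 2.65 RPKM with GW4064, a change of 0.43 (SE 0.12, limma adjusted p = 0.169). Rps7, a small-subunit protein, had 1.72 and 1.90 RPKM with vehicle and 2.05 and 2.84 RPKM with GW4064, a change of 0.40 (SE 0.18, limma adjusted p = 0.301). In Rpl39 and Rps7 the groups did not overlap, and in each the second GW4064 library was the highest. Rpl22l1, a paralogue of Rpl22, had 2.73 and 2.64 RPKM with vehicle and 3.41 and 3.47 RPKM with GW4064. Its change was 0.35 (SE 0.05, limma adjusted p = 0.065), with a narrow spread within both groups.

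The smallest fitted changes were near 0. Rpl32l, which the table places inside the Map7 row on the same strand, had 5.46 and 4.22 RPKM with vehicle and 4.13 and 4.36 RPKM with GW4064, a difference of −0.17 (SE 0.14). Rpl31, a large-subunit protein at the tunnel exit, had 2.44 and 2.30 RPKM with vehicle and 2.00 and 2.43 RPKM with GW4064, a difference of −0.10 (SE 0.11). Rps27, a small-subunit zinc finger protein, had 2.71 and 3.19 RPKM with vehicle and 2.78 and 2.77 RPKM with GW4064, a difference of −0.08 (SE 0.10), and Rps27rt counts the same reads. The groups overlapped in all of these, and each difference changed sign when 1 library was left out. In 64 of 84 members the 95% interval of the change lay within 1.5-fold either way.

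Rplp0 is of practical interest because its mRNA, under the name 36B4, was the reference of the RT-qPCR in this study. It had 9.99 and 10.4 RPKM with vehicle and 10.1 and 11.4 RPKM with GW4064, from 593, 623, 597 and 682 reads. The groups overlapped, and the change was 0.07 (SE 0.09, 95% interval −0.17 to 0.32, limma adjusted p = 0.681), which is a ratio of 1.05 with an interval of 0.889 to 1.24. Without GW4064 library 2 it was −0.02. The primers lie on chromosome 5 in Rplp0, at bases 721 to 740 and 765 to 782 of its 1358-base mRNA, and are shown because their exact matches bear on what the reference measures. The forward primer also matched the pseudogenes Gm14165 and Gm6278, and the reverse primer also matched Gm8730, so no other gene matched both.
36b4 forward: ccctgaagtgctcgacatca
36b4 reverse: tgcggacaccctccagaa

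The other P-stalk genes did not pass the test. Rplp1 had a change of 0.16 (SE 0.11, limma adjusted p = 0.492). Rplp2 had 2.85 and 3.13 RPKM with vehicle and 3.23 and 3.68 RPKM with GW4064, a change of 0.20 (SE 0.09, limma adjusted p = 0.326). In Rplp2 the groups did not overlap, while in Rplp1 the first GW4064 library lay between the vehicle libraries.

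Genes of the same pathway were read from lists written with earlier results of these data known. The other proteins of the mature ribosome (such as Rpsa, Fau and Rack1) had a median of 0.12, with 4 of 4 above 0. Among translation factors whose mRNAs carry TOP tracts the median was 0.11, with 19 of 24 above 0, and among ribosome biogenesis factors it was 0.13, with 63 of 74 above 0. In each of these 3 lists the second GW4064 library again stood higher than the first, with medians of 0.20, 0.20 and 0.21 against 0.07, 0.02 and 0.02. Mitochondrial ribosomal protein genes had a median of 0.04, with 53 of 76 above 0. Regulators of ribosomal protein synthesis, such as mTORC1 and its targets, had a median of −0.04, with 17 of 37 above 0. No gene of these 5 lists was called in either direction (limma, Benjamini-Hochberg). At an unadjusted p under 0.05, which 10.6% of rows passed in each direction, 5 of 74 biogenesis factors were higher and 0 lower, 4 of 24 translation factors were higher and 2 lower, and 2 of 37 regulators were higher and 7 lower. Among 76 mitochondrial ribosomal protein genes 5 were higher and 3 lower, and among the 4 other ribosome proteins 0 in either direction. Limma-voom on rebuilt reads, which called 4.58% of rows higher and 4.22% lower, called 2 biogenesis factors higher, 1 translation factor lower, 1 mitochondrial gene lower, and 1 regulator higher and 4 lower.

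Several genes of these lists came close to the threshold. Nop16, a factor for large-subunit assembly, had 3.59 and 3.50 RPKM with vehicle and 5.48 and 4.93 RPKM with GW4064 (log2 change 0.54, limma adjusted p = 0.056). Nat10, an RNA acetyltransferase that acts on ribosomal RNA, had 1.83 and 1.80 RPKM with vehicle and 2.59 and 2.40 RPKM with GW4064 (log2 change 0.44, limma adjusted p = 0.057). In both the groups did not overlap, and the first GW4064 library was the higher one, unlike in the members. Pdcd4, an inhibitor of translation initiation that S6 kinase marks for degradation, had 3.83 and 3.88 RPKM with vehicle and 2.95 and 2.97 RPKM with GW4064 (log2 change −0.37, limma adjusted p = 0.054). Eif4ebp1, the mTORC1-controlled inhibitor of cap binding, had 2.05 and 1.98 RPKM with vehicle and 1.34 and 1.52 RPKM with GW4064 (log2 change −0.47, limma adjusted p = 0.082). Directions differed within the lists. Foxo3, another regulator, was higher with GW4064 (log2 change 0.34, limma adjusted p = 0.0995). Mrpl14, a mitochondrial ribosomal protein gene, was lower (log2 change −0.38, limma adjusted p = 0.0999).

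The second comparison asks the same of nascent RNA, with and without FXR in hepatocytes. Each group had 1 library, so no test was made, ratios are log2 of RPKM + 0.1, and a ratio counts as higher or lower at 1.5-fold. Of 88 members, 84 averaged at least 0.5 RPKM across these libraries. In Fxr-Flox, GW4064 against vehicle, 1 member was 1.5-fold higher and 3 were lower, beside 7.32% and 8.01% of 10169 rows. The 3 lower rows were Rpl28, Rps27 and Rps27rt, and the last 2 hold the same reads. In Fxr-LKO, 3 were higher and 3 lower, beside 5.0% and 5.27% of rows. These shares were under the background.

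The median ratio of the members was 0.22 in Fxr-Flox and 0.02 in Fxr-LKO, and the split by snoRNA content separated the members further. In Fxr-Flox the 29 host members had a median of 0.31, with 28 above 0, and the 55 others had 0.08, with 32 above 0. All rows had a median of −0.09. In Fxr-LKO the medians were 0.01 in host members, 0.02 in the others and −0.02 in all rows. In Fxr-Flox the host members held 16298 reads with vehicle and 15298 with GW4064, from library totals of 14173723 and 10593326 reads. In Fxr-LKO they held 10091 and 9827 reads, from totals of 5141667 and 5069394. Depth thus differed between the Fxr-Flox libraries and hardly between the Fxr-LKO libraries, and its part in the ratios was not tested. The difference between the genotypes was not tested either, since each ratio rests on 1 pair of libraries.

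**Figure D3:**
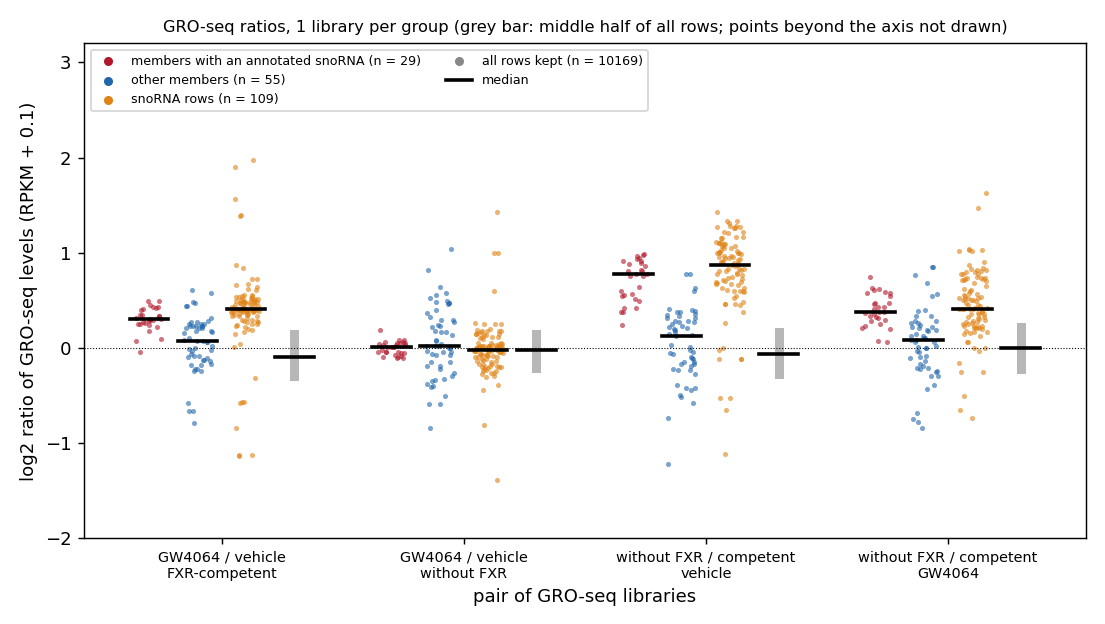
GRO-seq log2 ratios of RPKM + 0.1 for 4 pairs of libraries, where FXR-competent stands for Fxr-Flox and without FXR for Fxr-LKO. Red points are host members, blue points other members and orange points snoRNA rows, black lines are medians, and grey bars span the quartiles of all 10169 rows. The median of host members lies above that of the others in each pair except GW4064 against vehicle in Fxr-LKO.

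Single members show the counting error behind these ratios. Rpl19, a large-subunit protein, had 1.17 and 1.82 RPKM in Fxr-Flox (vehicle, then GW4064) and 0.981 and 1.33 RPKM in Fxr-LKO, a Fxr-Flox ratio of 0.60 with a 95% exact counting interval of 0.12 to 1.17. Rpl7, a large-subunit protein, had 2.50 and 3.76 RPKM in Fxr-Flox and 3.22 and 4.53 RPKM in Fxr-LKO, with ratios of 0.57 (0.21 to 0.97) and 0.48 (−0.04 to 1.03). GW4064 was the higher library in both genotypes for these members, and the intervals of the genotypes overlapped. Rps13 and Rps3a1, small-subunit proteins, both had Fxr-Flox ratios of 0.49, with intervals of 0.19 to 0.82 and 0.28 to 0.73. Their Fxr-LKO ratios were −0.07 (−0.47 to 0.33) and −0.08 (−0.37 to 0.21).

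The smallest Fxr-Flox ratios came from members with few reads. Rpl28 had 1.52 and 0.835 RPKM in Fxr-Flox and 0.984 and 1.5 RPKM in Fxr-LKO, a Fxr-Flox ratio of −0.79 with an interval of −1.87 to 0.08. Rps27 had 1.58 and 0.962 RPKM in Fxr-Flox and 2.78 and 1.81 RPKM in Fxr-LKO, a Fxr-Flox ratio of −0.66 (−1.96 to 0.42). Rpl15, a large-subunit protein, had 1.65 and 1.08 RPKM in Fxr-Flox and 1.54 and 1.19 RPKM in Fxr-LKO, a Fxr-Flox ratio of −0.58 (−1.24 to −0.03). Rpl28 was higher with GW4064 in Fxr-LKO, while Rps27 and Rpl15 were lower with GW4064 in both genotypes. All intervals cover counting error only.

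The genotypes were then compared under each treatment. With vehicle, 23 members were 1.5-fold higher in Fxr-LKO and 2 lower, beside 7.3% and 7.4% of rows. Of the 23, 19 were host members, and all 29 host members had a ratio above 0, with a median of 0.78. The 55 others had a median of 0.13, with 30 above 0, and all rows had −0.07. With GW4064, 9 members were higher and 4 lower, beside 8.57% and 9.5% of rows, and the medians were 0.38 in host members and 0.08 in the others. These contrasts share libraries with those above.

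Both Fxr-LKO levels lay above both Fxr-Flox levels in 29 of 29 host members and in 18 of 55 others, beside 17.1% of all rows. Rpl13a had 28.3 and 34.9 RPKM in Fxr-Flox and 56.0 and 54.2 RPKM in Fxr-LKO. The Fxr-Flox vehicle library was the lowest and the Fxr-LKO libraries were the highest. Rplp0, which holds no snoRNA, had 2.57 and 3.03 RPKM in Fxr-Flox and 4.02 and 3.52 RPKM in Fxr-LKO, from 155, 137, 88 and 76 reads.

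The same order was seen outside the members. The 90 snoRNA rows that lie in no member had medians of 99.5, 127, 167 and 168 RPKM (Fxr-Flox vehicle and GW4064, Fxr-LKO vehicle and GW4064). They held 15171, 15318, 10612 and 10103 reads in these libraries. The 78 of them kept by the filter had median ratios of 0.42 for GW4064 in Fxr-Flox and −0.02 for GW4064 in Fxr-LKO. For Fxr-LKO against Fxr-Flox their medians were 0.90 with vehicle and 0.42 with GW4064. Noncoding snoRNA host genes such as Gas5 had medians of 0.32, −0.03, 0.81 and 0.45 in the same order, while 157 other protein-coding hosts had 0.01, −0.01, 0.03 and 0.06. Read depth ran the opposite way, from 14173723 to 5069394 reads, and the summed hepatocyte markers were 809, 917, 1334 and 1302 RPKM. With 1 library per group, genotype, treatment, depth and library cannot be told apart.

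The third comparison sets total against nascent RNA in vehicle livers, as log2 of the mean RNA-seq level over the Fxr-Flox GRO-seq level. The assays came from different mice and protocols, so only the position of members among other rows is read. The median over the members was 0.22, beside 0.44 over all 11585 rows. It was −1.5 in host members and 0.79 in the others, and 0.94 in other protein-coding rows of 1000 to 10000 bases without a snoRNA. No member was 4-fold higher in total RNA and 8 were 4-fold higher in nascent RNA, beside 3.97% and 1.92% of rows, and all 8 were host members. The GW4064 libraries gave medians of −1.60 and 0.85.

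**Figure D4:**
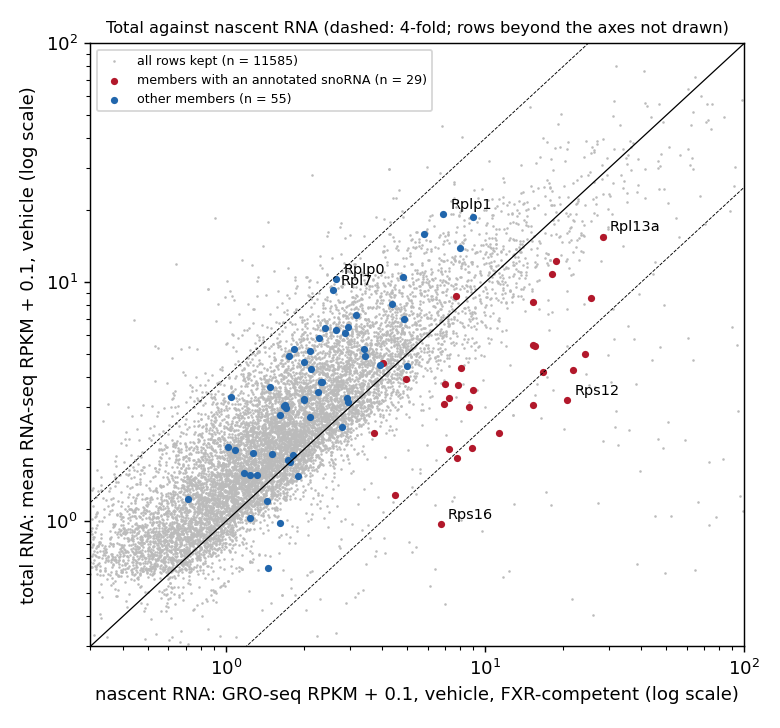
Mean RNA-seq level (vertical) against Fxr-Flox GRO-seq level (horizontal) in vehicle livers, both RPKM + 0.1 on log axes, with all rows in grey, host members in red and other members in blue. The solid line marks equal values and the dashed lines 4-fold. Most host members lie below the solid line, 8 of them past the lower dashed line, and no member lies past the upper one.

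Rps16 had the lowest ratio, −2.79, with 0.822 and 0.921 RPKM in total and 6.64 RPKM in nascent RNA of vehicle livers. Rps12, a small-subunit protein, had 3.05 and 3.16 RPKM in total and 20.7 RPKM in nascent RNA, a ratio of −2.70. Rpl27a and Rpl30, large-subunit proteins, followed with −2.35 and −2.32. All 4 hold snoRNAs, and their nascent levels exceeded the total levels 4.98-fold or more. At the other end, Rplp0 had a ratio of 1.95, with 9.99 and 10.4 RPKM in total and 2.57 RPKM in nascent RNA. Rpl7, Rpl18 and Rps4x followed with 1.83, 1.66 and 1.53. Rps4x is the X-linked small-subunit protein, and Rpl18 belongs to the large subunit.

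Where the reads of host members lie was measured in the 15 host members in which every annotated snoRNA overlaps a snoRNA row of the table. The snoRNA rows covered a median of 4.47% of the member's bases (1.63% to 9.87%). In Fxr-Flox vehicle GRO-seq they held a median of 63.3% of its reads, from 3.60% in Rpl23a to 88.7% in Rpl12. The medians in the other GRO-seq libraries were 67.8%, 66.4% and 71.5%. In RNA-seq they were 5.83% and 5.09% with vehicle and 4.28% and 5.12% with GW4064. Rps2, which holds the Snora64 sequence shown above, had 83.6% of its Fxr-Flox vehicle reads there, and Rps16 had 76.2% in the snoRNA AF357399.

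**Figure D5:**
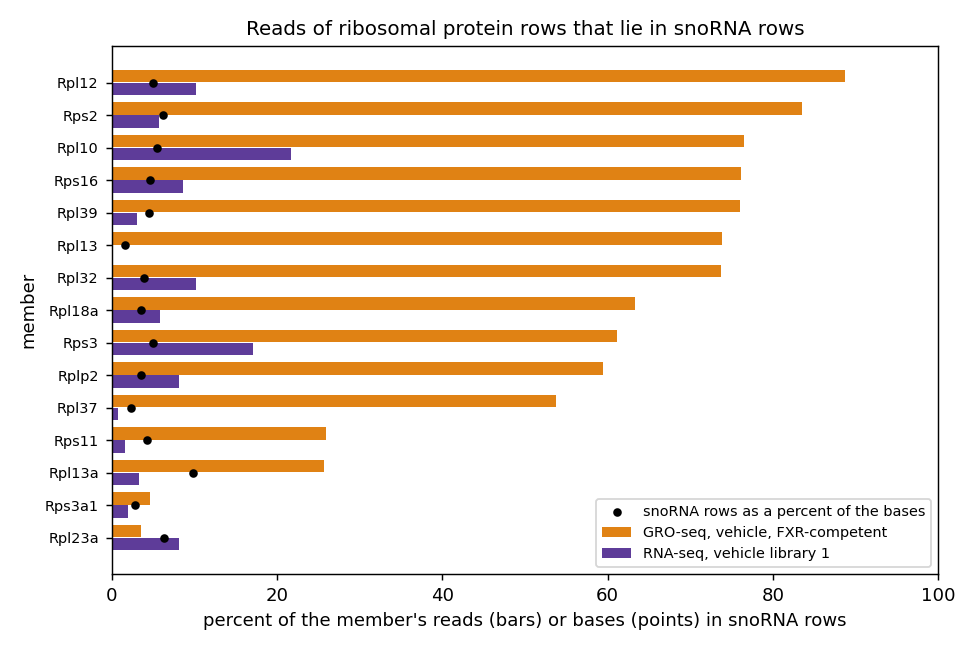
Percent of the reads of each host member that lie in its snoRNA rows, for the 15 members whose annotated snoRNAs all have a row, in Fxr-Flox vehicle GRO-seq (orange bars) and RNA-seq vehicle library 1 (purple bars), with the percent of bases as black points. The GRO-seq share runs from 3.60% in Rpl23a to 88.7% in Rpl12, and the median is 63.3% in GRO-seq and 5.83% in RNA-seq.

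Levels outside the snoRNA rows were then compared for these 15 members, an alternative chosen after seeing the data. The median total to nascent ratio was −1.34 over the whole row and −0.01 outside the snoRNA rows, with 7 of 15 above 0. For Fxr-LKO against Fxr-Flox with vehicle the median GRO-seq ratio was 0.76 over the whole row and 0.46 outside, with 14 of 15 above 0. With GW4064 it was 0.38 and 0.31, with 13 above 0. For GW4064 in Fxr-Flox it was 0.34 and 0.18, with 12 above 0. These 3 GRO-seq medians were thus smaller outside the snoRNA rows and of the same sign. For GW4064 in Fxr-LKO the medians were 0.01 and 0.003. Some snoRNA rows are shorter than the annotated snoRNA, such as Snord68 in Rpl13 with 47 of 86 bases. Levels outside the rows can therefore still hold snoRNA reads. Few reads remained in some members. In Fxr-Flox, Rps16 had 144 of 189 reads in its snoRNA row with vehicle and 137 of 149 with GW4064, and a ratio of −1.35 outside it.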

How the data were processed

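Liver RNA-seq and GRO-seq were analysed from 1 table of RPKM values. The authors mapped reads to mm10 with STAR 2.7.3a and computed the deposited RPKM per gene with HOMER. The submitters' notes further list bcl2fastq and FastQC. The handling of reads that map to several places is not given in the sources used here. Rows span introns. Whole reads were rebuilt from RPKM, row length and library total, and 100% of testable values were whole within 0.15. No column was left unused.

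Members and gene lists were chosen with earlier results of these data known. RNA-seq rows with a mean of at least 0.5 RPKM were fitted as log2(RPKM + 0.1) with limma 3.58.1 (R 4.3.3, trend=TRUE, treatment as the only term), with Benjamini-Hochberg adjustment over all 11408 rows and a threshold of 0.05. Fold changes are on that scale, which understates changes of low rows. GRO-seq and total to nascent ratios used the same added 0.1 RPKM without a test, with 95% Clopper-Pearson intervals on rebuilt reads. GRO-seq depth is lowest in Fxr-LKO, so its intervals are widest there. snoRNA positions and mRNA sequences came from GENCODE M21, and gene starts from RefSeq. The text names Rplp0, called members, paralogues, P-stalk members, members under the filter, and the 4 extremes of level, change, GRO-seq ratio and total to nascent ratio. Of the other lists, some of the 3 members with the smallest p are given. Members outside this rule (Rps2, Rpl12, Rpl23a and the genes with printed sequences) were chosen after their values were seen. Alternatives were other added values, filters, normalizations and fits, limma-voom on rebuilt reads, the replicate block, each library left out, longer or protein-coding rows, and rows that overlap no other. Levels outside snoRNA rows, loci counted once and the length-matched rows were added after seeing the data. The fit was also run on simulated libraries. These had independent rows and no shift shared by a library, so that run does not bear on the shift of the members. Python 3.11.15, pandas 2.3.3, numpy 2.4.6, scipy 1.17.1 and matplotlib 3.10.9 were used.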

Additional observations from a re-analysis of the deposited data

How the results depend on the processing

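The 1 member called higher in RNA-seq became 0 with a filter at 0.1 RPKM, with no filter, with trend=FALSE, with limma-voom on rebuilt reads (all rows or rows of at least 300 bases), among members overlapping no other row, and without any 1 library (0 to 0). It became 2 with rows of at least 300 bases, with protein-coding rows only and at an adjusted p under 0.1. Over all rows, 243 were called higher and 131 lower, against 522 and 481 with limma-voom, 640 and 631 when limma-voom took rows from 300 bases up, 82 and 46 with no filter, 424 and 310 with rows of at least 300 bases, 421 and 320 with protein-coding rows only, and 467 and 358 at an adjusted p under 0.1. Leaving out 1 library, where the lone library is taken to vary like the other group, left 0 to 32 higher and 0 to 11 lower. In every setting 0 members were called lower. With the replicate block 0 members were called, and 0 of all rows. At an unadjusted p under 0.05 that limma fit had 20 members higher and 0 lower, beside 1198 and 1129 of 11408 rows. The deviations of equally numbered libraries had a correlation of −0.02 over rows and 0.16 over the members, with 2 pairs. The numbers were not taken to pair the libraries, and 2 pairs cannot settle this for the members.

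Under quantile normalization the changes of Rpl13a (−0.077), Rpl15 (−0.0057), Rpl8 (−0.024) and Rplp0 (−0.0018) turned negative, and the median of the members was 0.10. Their median ran from 0.06 to 0.25 with 1 library left out. With 1 library left out the changes ran from −0.019 to 0.165 in Rplp0, −0.030 to 0.132 in Rpl15, −0.026 to 0.222 in Rpl27a, −0.234 to 0.036 in Rpl31, −0.358 to 0.0088 in Rpl32l, −0.172 to 0.242 in Rpl38, −0.195 to 0.035 in Rps27 and Rps27rt, and −0.012 to 0.210 in Rps27l.

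Median GRO-seq ratios of the members moved as follows. For GW4064 in Fxr-Flox they were 0.16 with 1 RPKM added, 0.32 with median centring and 0.13 among members overlapping no other row. For GW4064 in Fxr-LKO they were 0.056 with centring and 0.061 without overlaps. For Fxr-LKO against Fxr-Flox with vehicle they were 0.24, 0.38 and 0.14, and with GW4064 0.18 with 1 RPKM added and 0.13 without overlaps. The median total to nascent ratio was 0.31 in the GW4064 libraries and 0.75 among members overlapping no other row. The cause of these moves was not tested.

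With 2 libraries per treatment, and as few as 10 reads of a tested member in 1 library, small changes of low members were not detectable.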
